A study of Mus musculus with 6 samples.

Results

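The mitochondrial ribosomal protein genes carry symbols that start with Mrpl (large subunit) or Mrps (small subunit) followed by a number. Of the 18193 mouse genes with a probe set of their own on the arrays, 76 matched this rule, 47 of them Mrpl and 29 Mrps. Each gene was read from the probe set, among those annotated with that symbol alone, that had the highest mean over the 6 arrays. The choice of members used the symbol and this mean level, not any difference between groups.

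Mitochondria keep a small genome whose messages, all for subunits of the respiratory chain and ATP synthase, are translated on a ribosome of their own. Its RNAs are transcribed inside the organelle, whereas all its proteins are encoded in the nucleus, made in the cytosol and imported. The small subunit reads the message, and the large subunit joins amino acids and threads the new chain through an exit tunnel that faces the inner membrane. Some of the proteins have bacterial homologues and others occur only in mitochondria.

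The study compared E14Tg2a cells, a mouse embryonic stem (ES) cell line, at 96 h in 3 groups: cells given Ncl siRNA #1 (2 arrays), cells given Ncl siRNA #2 (2 arrays), and cells given a control siRNA duplex against firefly luciferase (2 arrays). Ncl encodes nucleolin, an abundant nucleolar protein with roles in ribosomal RNA synthesis and processing. All groups share the cell line and the time, no untransfected cells were analysed here, and the groups model a partial knockdown in 1 line. Nothing in the labels says that the arrays of a group came from separate cultures, so the p-values reflect array-to-array spread that may be technical, and the small number of arrays limits the precision.

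The values are log2 expression as deposited, and a level of one probe set says nothing about its level relative to another. Ncl itself read 13.77 and 13.74 with siRNA #1 and 13.77 and 13.72 with siRNA #2, against 14.21 on both control arrays. The 4 knockdown arrays lay below both control arrays, at 72.7% of the control level. ES cell markers were high on all arrays (mean of 5 genes 12.20 to 12.25 under siRNA #1, 11.96 to 11.97 under siRNA #2 and 12.59 to 12.61 under the control siRNA), with Pou5f1 (-0.46) and Nanog (-0.59) among the 4 of 5 that fell. Transcripts known from lung and heart muscle were present on the control arrays: the mean of 9 lung markers was 4.49 to 4.81 with siRNA #1 and 4.82 to 4.90 with siRNA #2, against 8.63 to 8.86 with the control siRNA. Of those markers 8 of 9 were lower in the knockdown arrays, led by the club cell gene Scgb1a1 (group means 3.49 for siRNA #1 and 3.90 for siRNA #2, against 12.96 for the control). None is at 0, since no array value is, the lowest anywhere being 2.47. The 8 heart muscle markers averaged 4.86 to 4.99 over the knockdown arrays, against 5.78 to 6.07 over the control arrays, and 7 of 8 were lower. The 6 leukocyte markers averaged 5.74 to 5.82 over the knockdown arrays, against 6.54 to 6.61 over the control arrays (3 lower, 1 higher), and the 6 fibroblast markers 6.18 to 6.44, against 6.71 to 7.05 (3 lower, 1 higher). Poly-A control RNAs added before labelling averaged 8.39 to 8.86 over the knockdown arrays, against 7.58 to 7.74 over the control arrays. Hybridisation control RNAs, added after labelling, lay the other way, at 11.15 to 11.25 over the knockdown arrays, against 11.98 to 12.07 over the control arrays. The 18S ribosomal RNA probe sets averaged 12.96 to 13.20 over the knockdown arrays, against 12.02 to 12.19 over the control arrays. These values separate the control arrays from both Ncl siRNA groups in every comparison with the control, and their part in the results below was not tested. The comparison of siRNA #2 with siRNA #1 uses no control array.

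Most mitochondrial ribosomal protein genes were lower after either Ncl siRNA. With the mean of both siRNAs set against the control siRNA, 58 of the 76 genes fell, none rose and 18 were not called, at an adjusted p under 0.05 in a limma fit over all genes. Over all 18193 genes the same test called 21.7% lower and 20.3% higher. Since these genes are bright, a closer background is the 5224 genes at or above the dimmest member in mean level, of which 38.3% were lower and 31.3% higher. The median member changed by -0.33 on the log2 scale, to 79.6% of the control level, while the median over all genes was -0.05. In RNA from whole cultures, fewer cells that express a gene and less RNA per cell cannot be told apart.

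The average over the 76 genes shows the shift array by array. It was 10.80 and 10.68 with siRNA #1 and 10.56 and 10.61 with siRNA #2, against 11.03 and 10.97 with the control siRNA. The groups did not overlap, and the siRNA #2 arrays were the lowest. Gene by gene, all 4 knockdown arrays lay below both control arrays for 57 members, against 26.7% of all genes. They lay above both for no member, against 23.4% of all genes. Shares without overlap, here and below, were counted over all genes only, not over genes at least as bright as the dimmest member. Most changes were modest, as the lowest member remained at 54.9% of its control level. The level of a member's probe set was weakly related to its change (Pearson's r 0.18 across the 76 genes, which share the same arrays and normalization).

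**Figure D1:**
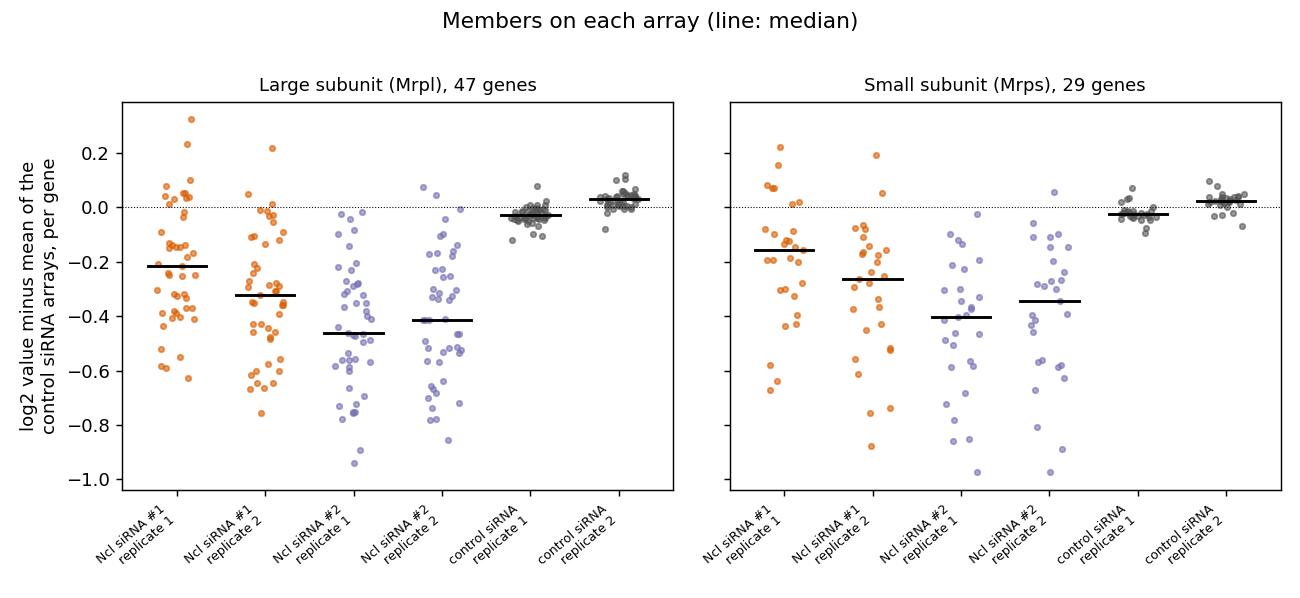
Log2 value of each member minus its mean on the control siRNA arrays (vertical axis), for each of the 6 arrays (horizontal axis), with 47 large-subunit genes on the left and 29 small-subunit genes on the right. Points are genes and lines are medians over genes. On the 4 Ncl siRNA arrays most points lie below 0, and the siRNA #2 arrays have the lowest medians in both subunits.

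The 10 members with the largest falls came from both subunits. Mrps12, the homologue of bacterial S12, which helps the decoding centre to select the correct tRNA, read 10.72 and 10.48 with siRNA #1 and 10.39 and 10.39 with siRNA #2, against 11.34 and 11.38 with the control siRNA. It was the lowest of all members (-0.86 ± 0.06, SE of the difference between 4 knockdown and 2 control arrays; adjusted p 1.39e-10). Mrps21, the homologue of bacterial S21, read 9.97 and 9.88 with siRNA #1 and 9.79 and 9.75 with siRNA #2, against 10.61 and 10.67 in the controls (-0.79 ± 0.06). In both genes every knockdown array lay below every control array, and the siRNA #2 arrays were below the siRNA #1 arrays. The probe set of Mrps12, like that of Mrpl9 below, is of a type that can also bind related transcripts. The promoters of Mrps12 and Mrps21 are shown because these are the 2 largest falls among genes called lower with each siRNA. The sequences are RefSeq's for GRCm38.p6, 250 bases before to 50 after the annotated start, both on the minus strand: Mrps12 at chr7:28741772-28742071 and Mrps21 at chr3:95871465-95871764. Capitals mark matches on either strand to CCGGAAG, a core read by ETS factors such as GABPA, and in Mrps12 also to AAGATGG, the core of YY1, found there on the opposite strand as the letters CCATCTT.
Mrps12: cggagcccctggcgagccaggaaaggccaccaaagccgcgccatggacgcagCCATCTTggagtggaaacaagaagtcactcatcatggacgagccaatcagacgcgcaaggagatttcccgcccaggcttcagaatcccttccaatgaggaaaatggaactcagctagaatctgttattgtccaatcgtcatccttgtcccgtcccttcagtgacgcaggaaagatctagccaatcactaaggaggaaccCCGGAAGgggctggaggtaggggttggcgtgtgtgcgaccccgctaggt
Mrps21: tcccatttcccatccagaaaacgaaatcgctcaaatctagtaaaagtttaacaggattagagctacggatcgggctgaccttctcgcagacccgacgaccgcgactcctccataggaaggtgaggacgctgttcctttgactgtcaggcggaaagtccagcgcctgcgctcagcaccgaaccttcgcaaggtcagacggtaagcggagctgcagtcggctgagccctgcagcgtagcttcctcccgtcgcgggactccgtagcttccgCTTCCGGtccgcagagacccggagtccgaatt

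Mrpl41, a large-subunit protein found only in mitochondria and not in bacterial ribosomes, read 10.23 and 10.15 with siRNA #1 and 9.93 and 9.96 with siRNA #2, against 10.80 and 10.84 with the control siRNA (-0.75 ± 0.06). Mrps25, another mitochondria-specific protein, in the small subunit, read 10.32 and 10.17 with siRNA #1 and 10.05 and 10.10 with siRNA #2, against 10.89 and 10.92 in controls (-0.75 ± 0.06). In both, the siRNA #2 arrays lay below the siRNA #1 arrays and these below the control arrays. The homologue of bacterial L33, Mrpl33, read 10.23 and 10.22 with siRNA #1 and 9.88 and 10.04 with siRNA #2, against 10.75 and 10.89 in controls (-0.73 ± 0.06). Mrpl9, the homologue of the ribosome-surface protein L9, read 9.67 and 9.55 with siRNA #1 and 9.44 and 9.50 with siRNA #2, against 10.29 and 10.14 in controls (-0.68 ± 0.07, and -0.34 from the probe set kept when cross-binding types were left out). Mrpl20, whose bacterial homologue acts early in large-subunit assembly, read 11.19 and 11.09 with siRNA #1 and 10.96 and 10.97 with siRNA #2, against 11.72 and 11.70 in controls (-0.66 ± 0.05). All 3 showed that order of groups, with no array out of place. The mitochondria-specific Mrpl49 (-0.62 ± 0.07) and the bacterial L34 homologue Mrpl34 (-0.61 ± 0.06) followed. Mrpl49 read 10.34 and 10.07 with siRNA #1 and 9.99 and 10.02 with siRNA #2, against 10.68 and 10.75 in controls. Mrpl34 read 11.58 and 11.32 with siRNA #1 and 11.21 and 11.30 with siRNA #2, against 11.94 and 11.99 in controls.

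The tenth gene, the mitochondria-specific Mrpl50, gave different answers from its probe sets. The probe set used read 10.17 and 10.04 with siRNA #1 and 10.08 and 10.02 with siRNA #2, against 10.76 and 10.84 with the control siRNA (-0.72 ± 0.06). Its other probe set, of similar brightness, changed by -0.04 (adjusted p 0.753). A similar split was seen for Mrps23, a mitochondria-specific protein of the small subunit, with -0.61 from the probe set used and -0.11 from another (adjusted p 0.315). Other members differed too. Mrpl28 changed by -0.20 in the probe set used, against -0.02 and 0.03 in others. Mrps14 changed by -0.30, against 0.05 in a dimmer probe set. These genes were singled out after their values were seen, and the counts over all other probe sets are given below.

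**Figure D2:**
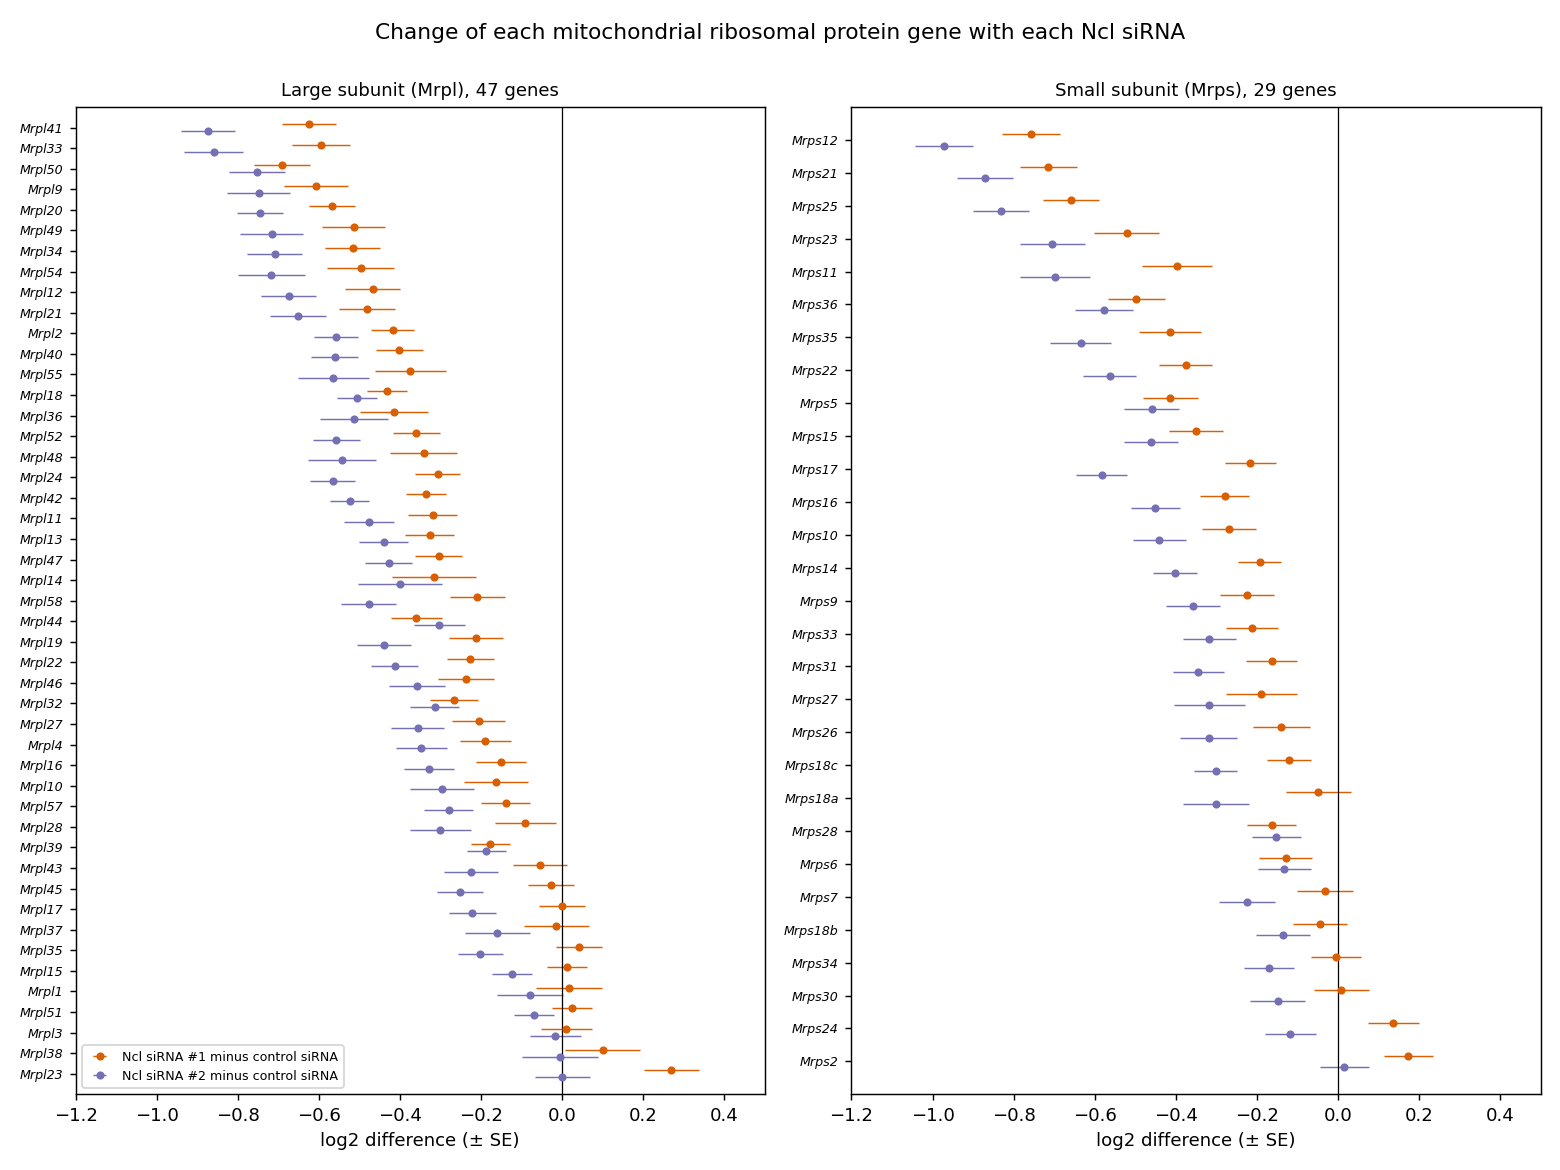
Log2 difference from the control siRNA (horizontal axis, points with bars of 1 SE from the limma fit) for each large-subunit gene (left) and small-subunit gene (right), ordered by the mean of both siRNAs. Orange points are Ncl siRNA #1 and purple points Ncl siRNA #2. Purple points lie left of orange ones in 74 of the 76 genes, and Mrps12 reaches the lowest values.

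Most genes of both subunits fell: 37 of 47 in the large subunit (median -0.34) and 21 of 29 in the small subunit (median -0.29). The difference between these medians, large minus small, was -0.05, and it depended on single arrays: it was -0.09 without control replicate 1 and -0.01 without control replicate 2. The large-subunit average minus the small-subunit average was 0.194 and 0.203 on the siRNA #1 arrays and 0.210 and 0.201 on the siRNA #2 arrays, against 0.208 and 0.222 on the control arrays. The siRNA #2 and control arrays overlapped in this measure, and it moved far less than the average of all members. Among genes with bacterial homologues, 23 of 29 fell in the large subunit (median -0.36) and 12 of 18 in the small subunit (median -0.29). Among mitochondria-specific genes, 14 of 18 fell in the large subunit (median -0.34) and 8 of 10 in the small subunit (median -0.26). The counts of the subunits and of these classes stand against 21.7% lower over all genes. Over genes at least as bright as the dimmest member the share was 38.3%.

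The symbol does not name the right subunit or complex for 3 members. Mrps36, whose protein is known as a component of the alpha-ketoglutarate dehydrogenase complex and not of the ribosome, fell by 0.54. The proteins of Mrps18a and Mrps30 sit in the large subunit despite their names, and neither gene passed the test (-0.17 and -0.07, adjusted p 0.0507 and 0.381). With these 2 genes counted in the large subunit the large-minus-small difference was -0.03, and with Mrps36 left out it was -0.06.

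In the stalk that recruits translation factors, all 3 listed genes fell, against 38.3% of genes at least as bright as the dimmest member. Mrpl12, the L7/L12 homologue, which has also been reported to bind the mitochondrial RNA polymerase, read 11.50 and 11.23 with siRNA #1 and 11.14 and 11.17 with siRNA #2, against 11.82 and 11.83 with the control siRNA (-0.57 ± 0.06). Mrpl11, at the base of the stalk, changed by -0.40 ± 0.05 and Mrpl10, which carries the L12 copies, by -0.23 ± 0.07. Mrpl10 was the least firm of these: siRNA #1 read 10.20 and 9.94 and siRNA #2 9.95 and 9.93, against 10.22 and 10.25 in controls, and the call was lost without control replicate 2 (adjusted p 0.0781).

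The central protuberance, the crest of the large subunit that contacts tRNAs, contributed 5 falls among 6 listed genes (83.3%). Of genes at least as bright as the dimmest member 38.3% were lower. Mrpl40 (-0.48), Mrpl18 (-0.47), Mrpl48 (-0.44), Mrpl46 (-0.30) and Mrpl27 (-0.28) were lower, with SEs of 0.04 to 0.07. Mrpl38 did not pass (0.05 ± 0.08, adjusted p 0.692): it read 9.42 and 9.16 with siRNA #1 and 9.11 and 9.27 with siRNA #2, against 9.17 and 9.21 with the control siRNA. Its groups overlapped, and its sign changed with the probe set, since a dimmer probe set gave -0.27 (adjusted p 0.0785).

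The 5 genes listed for the exit tunnel and its rim, which need not be all of them, were divided. Of these 3 were called lower (60%), against 38.3% of genes at least as bright as the dimmest member. Mrpl24 (-0.44 ± 0.05) and Mrpl22 (-0.32 ± 0.05), homologues of tunnel proteins of bacteria, fell, and so did Mrpl45, which anchors the ribosome to the inner membrane, by a small amount (-0.14 ± 0.05, adjusted p 0.0272) that did not pass without control replicate 2 (-0.10) or without siRNA #2 replicate 1 (-0.13). Mrpl17 changed by -0.11 (adjusted p 0.0826), and passed without siRNA #1 replicate 1 (-0.14, adjusted p 0.0217). Mrpl23, whose bacterial homologue docks nascent-chain factors at the tunnel exit, read 10.86 and 10.75 with siRNA #1 and 10.49 and 10.58 with siRNA #2, against 10.49 and 10.59 with the control siRNA. Both siRNA #1 arrays were above all others, while siRNA #2 and control arrays overlapped, so that its change was 0.27 ± 0.07 with siRNA #1 (adjusted p 0.0027) and 0.00 ± 0.07 with siRNA #2 (adjusted p 0.995). For the mean of both siRNAs Mrpl23 did not pass (0.14, adjusted p 0.0682), except without siRNA #1 replicate 2 (adjusted p 0.02), after quantile normalization (adjusted p 0.0123) and among genes above the median signal (adjusted p 0.048).

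Among genes listed for decoding and the mRNA path of the small subunit, 2 of 5 fell, or 40%. That share is near the 38.3% of genes at least as bright as the dimmest member. Next to Mrps12, Mrps5 changed by -0.44 ± 0.06. Mrps7, which lines the mRNA path in bacteria, changed by -0.13 (adjusted p 0.0956). Mrps2, a homologue of bacterial S2, read 11.12 and 11.15 with siRNA #1 and 10.93 and 11.02 with siRNA #2, against 10.92 and 11.00 in controls, and rose with siRNA #1 (0.17 ± 0.06, adjusted p 0.0274). With siRNA #2 its change was 0.02 (adjusted p 0.883), and the difference between the siRNAs did not pass the test (-0.16, adjusted p 0.11). Mrps24, the S3 homologue, read 11.48 and 11.31 with siRNA #1 and 11.12 and 11.15 with siRNA #2, against 11.23 and 11.27 in controls, so the siRNAs lay on opposite sides of the control (0.01 ± 0.05 for their mean). A second probe set of Mrps24 gave -0.28 (adjusted p 4.62e-04), against 0.01 from the one used, and both are of the type that can bind related transcripts. Of the 3 homologues of bacterial S18, Mrps18c fell (-0.21 ± 0.05, but adjusted p 0.0531 without control replicate 2), and Mrps18a (-0.17) and Mrps18b (-0.09) did not pass the test. Mrps18a passed without siRNA #1 replicate 1 (adjusted p 0.00575) or control replicate 1 (adjusted p 0.0165), and Mrps7 without siRNA #1 replicate 1 (adjusted p 0.0419).

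The members that did not fall included some of the brightest. Mrpl39 was the brightest (mean level 12.67) and fell slightly (-0.18 ± 0.04). Mrpl51 read 12.37 and 12.34 with siRNA #1 and 12.23 and 12.29 with siRNA #2, against 12.32 and 12.34 with the control siRNA (-0.02 ± 0.04). For Mrpl15 the probe set used gave -0.06 (adjusted p 0.325), whereas 3 other bright ones gave -0.23, -0.39 and -0.42, all passing the test. The probe set used for Mrpl15 is of a type that may bind other transcripts, and when such probe sets were left out the gene fell (-0.39, adjusted p 2.72e-07). Among the dimmest, Mrpl14 (-0.36) and Mrpl55 (-0.47) fell, and Mrpl38 is given above.

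The gene of a protein that reaches towards the peptidyl transferase centre in bacteria, Mrpl3, changed by -0.00 ± 0.05, reading 10.75 and 10.71 with siRNA #1 and 10.69 and 10.71 with siRNA #2, against 10.68 and 10.76 with the control siRNA. Its other probe sets differed, with -0.23 (adjusted p 0.0259) from one of similar brightness and 0.51 (adjusted p 0.0116) from a dim one at a mean level of 5.93. No member rose with each siRNA, so the promoters of Mrpl23 and of Mrpl3 are shown as examples of genes that did not fall, chosen after their values were seen. They lie on the plus strand at chr7:142532782-142533081 and chr9:105053018-105053317 in RefSeq's GRCm38.p6 table, over the same window, with capitals for TGCGCA, the core of a half-site of NRF1, in Mrpl23 and for CCGGAAG in Mrpl3.
Mrpl23: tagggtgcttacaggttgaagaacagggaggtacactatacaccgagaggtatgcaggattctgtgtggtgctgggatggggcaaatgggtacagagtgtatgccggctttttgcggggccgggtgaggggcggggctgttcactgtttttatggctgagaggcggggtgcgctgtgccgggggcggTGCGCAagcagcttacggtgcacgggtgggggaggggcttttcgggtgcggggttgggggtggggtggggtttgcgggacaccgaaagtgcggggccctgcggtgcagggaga
Mrpl3: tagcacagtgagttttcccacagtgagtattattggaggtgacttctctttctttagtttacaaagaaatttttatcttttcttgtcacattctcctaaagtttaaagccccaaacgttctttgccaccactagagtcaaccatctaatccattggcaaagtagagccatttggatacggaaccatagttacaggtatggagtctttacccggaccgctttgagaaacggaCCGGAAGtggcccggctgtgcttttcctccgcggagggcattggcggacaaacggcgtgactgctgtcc

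The promoters of both fallen genes and that of Mrpl3 hold the ETS letters. Of the 76 members 67 had an entry in that table. On either strand, TGCGCA occurred in 31.3% of them, against 8.79% of 27025 genes of the table and 12.8% of its 14452 measured genes. CCGGAAG occurred in 37.3%, against 9.93% and 15% of those sets, AAGATGG in 19.4%, against 7.28% and 7.54%, and the E-box CACGTG in 7.46%, against 8.09% and 10.2%. These shares were not counted over genes at least as bright as the dimmest member, so brightness was not matched. No printed match overlapped another. Among members the median change was -0.29 with TGCGCA and -0.42 without, -0.32 with CCGGAAG and -0.36 without, -0.29 with AAGATGG and -0.35 without, and -0.46 in the 5 with the E-box and -0.34 without. Such matches describe the letters of a window and not bound sites. Of the factors named above with their letters, Gabpa fell by 0.21, while Nrf1 (-0.06) and Yy1 (-0.01) did not pass the test. No factor was named for the E-box.

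Some members start next to another gene on the opposite strand. With starts at most 500 bases apart, 20 members had such a neighbour that was measured and not itself a member. Of these members 17 fell (median -0.36), and of the neighbours 7 fell and 2 rose (median -0.09). Over all genes 21.7% were lower and 20.3% higher, and over genes at least as bright as the dimmest member 38.3% and 31.3%. The neighbours were not matched to the members in level. Some had wider SEs (0.17 for Cyb5rl, against 0.07 for its partner Mrpl37), so the counts called are not like for like. The member had the lower change in 16 of 20 pairs. The widest gap was in the pair of Mrps12 and Sars2, the mitochondrial seryl-tRNA synthetase gene, whose starts lie 147 bases apart: Mrps12 changed by -0.86, whereas Sars2 rose by 0.63 ± 0.12 (adjusted p 1.52e-04). Mrpl14 (-0.36) and its neighbour Tmem63b (0.65 ± 0.09) also moved in opposite directions. Mrpl47 and the complex I gene Ndufb5 both fell (-0.37 and -0.35), as did Mrps5 and Zfp661 (-0.44 and -0.51), and the only pair made of members, Mrps11 and Mrpl46, fell by 0.55 and 0.30.

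**Figure D3:**
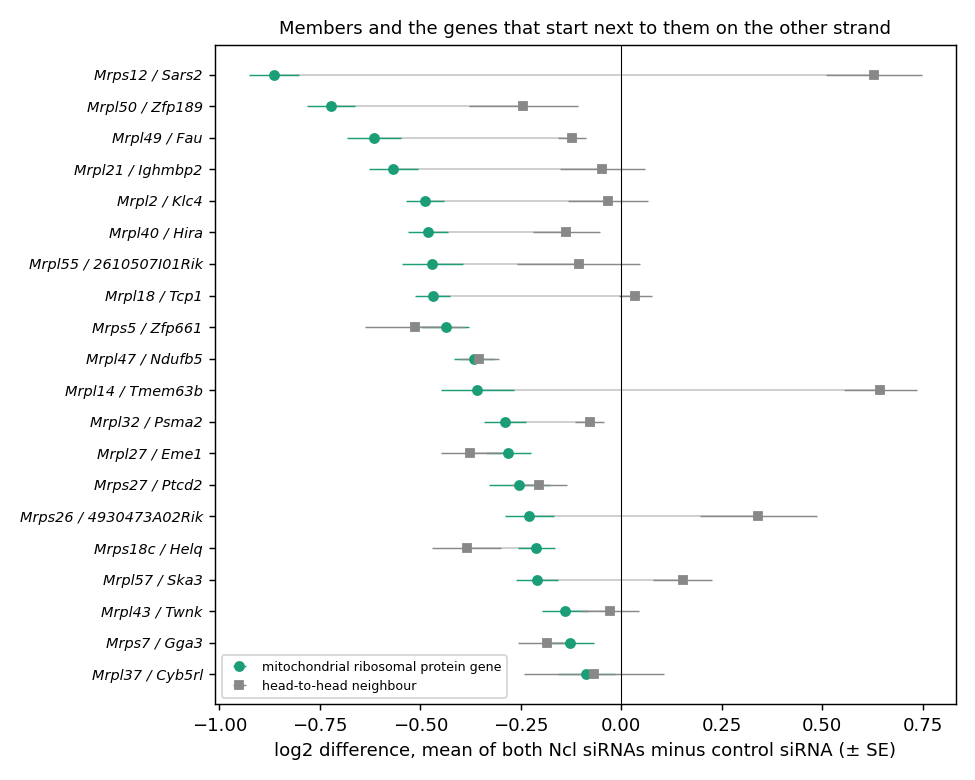
Log2 difference of the mean of both Ncl siRNAs from the control siRNA (horizontal axis, bars of 1 SE) for 20 mitochondrial ribosomal protein genes (green circles) and the genes that start within 500 bases of them on the opposite strand (grey squares). Pairs run from the lowest member, Mrps12, at the top, where Sars2 lies on the other side of 0, and in 16 pairs the circle is left of the square.

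More members passed the test with siRNA #2 than with siRNA #1. With siRNA #1, 50 members fell and 2 rose (Mrpl23 and Mrps2), with a median of -0.23. The background was 17.3% lower and 20.2% higher over all genes, and 29.7% lower and 31.9% higher over those at least as bright as the dimmest member. Both siRNA #1 arrays lay below both control arrays in 57 members (34.2% of all genes) and above in 4 (29.9% of all genes). Without control replicate 1 neither of the 2 rises passed the test. With siRNA #2, 63 members fell and none rose, with a median of -0.41. The background was 21.7% lower and 17.7% higher over all genes, and 40.4% lower and 27.1% higher over the bright ones. Both siRNA #2 arrays lay below both control arrays in 72 members (38.6% of all genes) and above in none (31% of all genes). Both comparisons use the same control arrays. Of the members 49 were lower with each siRNA, 14 with siRNA #2 only and 1 (Mrps28) with siRNA #1 only by these calls, and none had opposite calls.

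Set directly against siRNA #1, siRNA #2 gave lower values in 16 members and higher ones in none, against 6.18% and 2.3% of all genes and 13.1% and 3.73% of the genes at least as bright as the dimmest member. The median member differed by -0.17 (all genes -0.03, the bright genes -0.09). Both siRNA #2 arrays were below both siRNA #1 arrays in 62 members, against 33.3% of all genes, and above in none, against 20.9%. In 47 members siRNA #2 lay below siRNA #1 and siRNA #1 below the control without overlap, against 12.2% of all genes. These shares without overlap were not counted over the bright genes, which themselves leaned to lower values with siRNA #2. The difference was below 0 in 3909 of the 5224 bright genes, against 10100 of all 18193. The number of calls rested on single arrays. It fell without siRNA #1 replicate 1 or either siRNA #2 array, and grew without siRNA #1 replicate 2. The share of all genes called lower moved the same way. With the variance fitted without a trend on signal, 0 members were called lower and 0 higher, against 0.33% of all genes lower. The siRNA #1 arrays differed from each other more than others did, with a median difference over members of 0.115, against 0.053 between the siRNA #2 arrays and 0.059 between the control arrays. Ncl itself did not differ between the siRNAs by this test (-0.01 ± 0.04, adjusted p 0.941).

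The member with the widest gap between the siRNAs was Mrps17, the homologue of bacterial S17, a protein that binds the ribosomal RNA of the small subunit. It read 10.27 and 10.28 with siRNA #2, against 10.66 and 10.62 with siRNA #1 (-0.37 ± 0.06, adjusted p 7.48e-04), while the control arrays read 10.83 and 10.88. Mrps11, the homologue of bacterial S11, read 9.14 and 9.19 with siRNA #2, against 9.58 and 9.34 with siRNA #1 (-0.30 ± 0.09). Mrpl23, described above, differed by -0.27 ± 0.07. In these 3 genes the siRNAs did not overlap, but the differences of Mrps11 and Mrpl23 did not pass the test without siRNA #1 replicate 1 or without either siRNA #2 array.

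Mrpl58, a peptidyl-tRNA hydrolase built into the large subunit that can release stalled chains, read 10.23 and 10.25 with siRNA #2, against 10.59 and 10.43 with siRNA #1 (-0.27 ± 0.07). Mrpl33 differed by -0.26 ± 0.07. The difference of Mrpl58 did not pass the test without siRNA #1 replicate 1 or without either siRNA #2 array, and that of Mrpl33 did not without siRNA #1 replicate 1 or siRNA #2 replicate 1. Mrpl24 read 11.42 and 11.49 with siRNA #2, against 11.76 and 11.66 with siRNA #1 (-0.26 ± 0.06, adjusted p 0.00496), a call lost without siRNA #2 replicate 1 (adjusted p 0.123), and 4 of the 5 exit tunnel genes were among the 16 called. The other 10 calls ranged from -0.25 in Mrps24 to -0.18 in Mrps18c.

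The counts of the lists that follow stand against 38.3% lower and 31.3% higher among genes at least as bright as the dimmest member, and 21.7% and 20.3% among all genes. Of 4 measured genes for proteins of the same ribosome with other symbols, 2 fell. Gadd45gip1 (-0.60 ± 0.07) and Chchd1 (-0.25 ± 0.04) fell, whereas Dap3, the GTP-binding protein of the small subunit (0.11, adjusted p 0.119), and Ptcd3, a pentatricopeptide repeat protein (-0.09, adjusted p 0.148), did not pass. Of 21 genes for assembly and ribosomal RNA modification, 10 fell (47.6%) and 1 rose (median -0.14). Among them were Fastkd2, which binds the large ribosomal RNA (-0.94 ± 0.06), Rbfa, a small-subunit maturation factor (-0.58 ± 0.07), Tfb1m, which dimethylates the small ribosomal RNA (-0.55 ± 0.08), and Malsu1, which in human cells keeps the large subunit from joining early (-0.39 ± 0.05). Noa1, a GTPase needed for mitochondrial translation, was the gene that rose (0.21 ± 0.08, adjusted p 0.0399).

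Of 10 translation factors 4 fell and none rose (median -0.14), so that 40% were called lower, near the 38.3% of the bright genes. They were the release factor Mtrf1l (-0.57 ± 0.10), the initiation factor Mtif2 (-0.40 ± 0.06), the elongation factor Gfm1 (-0.40 ± 0.06) and the recycling factor Mrrf (-0.33 ± 0.08). The 16 mitochondrial tRNA synthetases had no common direction, with 3 higher and 4 lower (median 0.01). Sars2 (0.63) and Mars2 (0.53 ± 0.14) rose, and Yars2 (-0.55 ± 0.07) and Vars2 (-0.38 ± 0.11) fell. Of 10 genes for transcription and replication of mitochondrial DNA and stability of its messages, 5 fell (50%) and 2 rose (median -0.16), with falls of the RNA polymerase Polrmt (-0.55 ± 0.06), its elongation factor Tefm (-0.50 ± 0.07), the RNA-binding Slirp (-0.46 ± 0.05) and the single-strand binding protein Ssbp1 (-0.40 ± 0.04). Among 10 transcription regulators of mitochondrial genes, Ppargc1b (-1.30 ± 0.15) and Gabpa fell and Mycn rose (0.28 ± 0.04).

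Of 81 oxidative phosphorylation subunits 48 fell and 9 rose (59.3% and 11.1%, median -0.20), but the complexes differed in their medians. Genes were grouped by the start of the symbol, so any tissue-specific isoforms or like-named genes were not set apart. The Uqcr genes of complex III (7 of 8 lower, 1 higher, median -0.42) and the Atp5 genes of ATP synthase (12 of 17 lower, 2 higher, median -0.37) had medians below that of the members. The Nduf genes of complex I (19 of 35 lower, median -0.18), the Cox genes of complex IV (9 of 17 lower, 4 higher, median -0.15) and the Sdh genes of complex II (1 of 4 lower, 1 higher, median -0.09) had medians above it. Across these subunits the lowest values were in Uqcr10 (-0.83), Uqcrh (-0.79), Ndufv3 (-0.76) and Atp5g1 (-0.76). Of 49 cytosolic ribosomal protein genes 22 fell and 4 rose (median -0.08), so that 44.9% were called lower against 38.3% of the bright genes. Their lowest were Rpl37 (-0.79), Rpl22l1 (-0.77), Rpl27a (-0.67) and Rpl3l (-0.66). The list was set by symbol and takes in like-named paralogues, Rpl22l1 and Rpl3l among them. It leaves out any gene read only by probe sets with several symbols. Its mean level was 13.06 to 13.21 over the 6 arrays, against 10.56 to 11.03 for the members. Whether this brightness bears on the size of the change was not tested. With siRNA #2 set against siRNA #1, 20 of the 81 oxidative phosphorylation genes were lower (24.7%) and 1 higher, and 1 of the 49 cytosolic ribosomal protein genes was lower (2.04%) and none higher. The share called lower was 21.1% among the members, 6.18% among all genes and 13.1% among the bright ones. Of 6 genes that track mitochondrial mass, Vdac1, the outer-membrane channel (-0.42 ± 0.04), and Cs, citrate synthase (-0.32 ± 0.04), fell, while Mdh2 (0.23 ± 0.04) and Tomm20 (0.15 ± 0.04) were among the 3 that rose. The differences between these lists and the members were not tested.

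**Figure D4:**
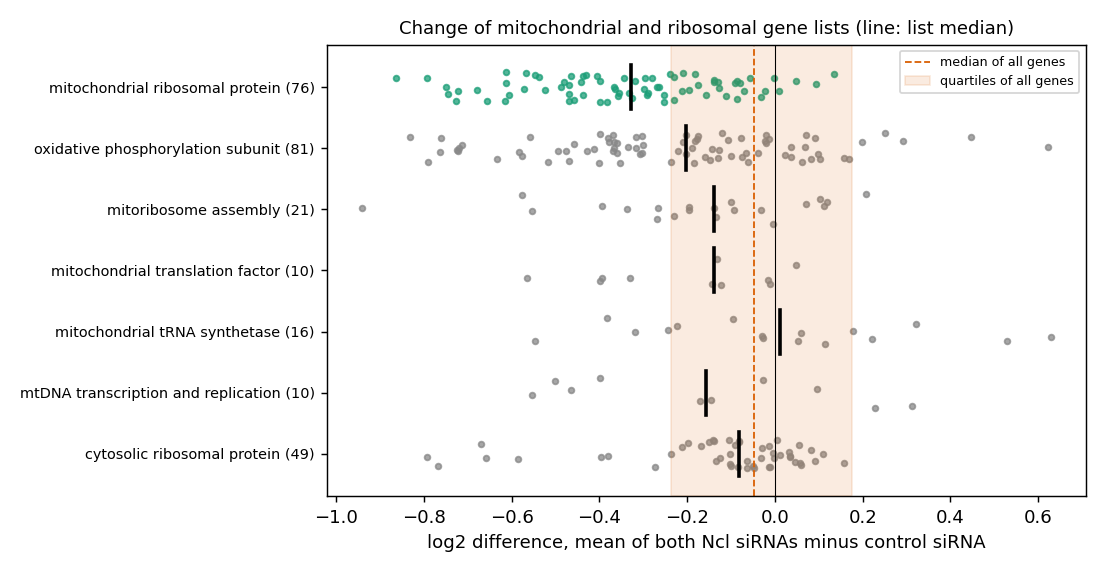
Log2 difference of the mean of both Ncl siRNAs from the control siRNA (horizontal axis) for genes of 7 lists, with the number of measured genes beside each name. Points are genes and black lines are list medians. The orange dashed line and band are the median and quartiles of all genes. The line of the mitochondrial ribosomal proteins, at -0.33, lies below the band, and that of the cytosolic ribosomal proteins, at -0.08, lies within it.

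The other probe sets of the members gave a check on the choice of one per gene. Of 80 further probe sets, for 42 of the genes, 31 were lower, 2 higher and 47 not called, with a median of -0.16. Of the 28 at least as bright as the dimmest member, which come from 21 genes, 22 were lower and none higher, with a median of -0.31. These calls come from the fit over all probe sets. No share of all probe sets called in it is given, so the counts were not set against a background. The 2 higher ones were the dim probe set of Mrpl3 given above and a second one of Mrps2 (0.31, adjusted p 0.0249). Mrpl30 and Mrpl53 are read only by probe sets that also carry another symbol and are not members. Those probe sets gave -0.60 and -0.14 for Mrpl30, shared with Gm6238, and -0.51 for Mrpl53, shared with Ccdc142.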

How the data were processed

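Per the labels' protocols, total RNA was extracted with a Qiagen kit and biotin-labelled with Affymetrix's IVT kit. The values are log2 expression for each probe set as deposited by the authors (background correction, summarization and normalization: not given in the sources used here). The equal upper limit on 3 of the arrays and close medians show only that arrays were brought near a common scale. The quartiles of siRNA #1 replicate 1 stood apart, at 4.17 and 8.25. The closest array, siRNA #1 replicate 2, had 4.27 and 8.10. What this did to the comparisons with siRNA #1 was not tested beyond the alternatives below. Of 45101 probe sets 34958 had 1 symbol in the platform annotation, 932 several and 9211 none; control probe sets were left out of the tests. Each gene was read from its brightest single-symbol probe set, and a model with the 3 groups was fitted over 18193 genes with limma 3.58.1 in R 4.3.3 (lmFit and eBayes with a variance trend, 3 residual degrees of freedom). Tests are two-sided, and p-values were adjusted over all genes (Benjamini-Hochberg); probe sets other than those used were adjusted over all 45037 tested. Tables were made in Python 3.11.15 with pandas 2.3.3. The fit was tested on simulated data.

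The members and lists were chosen with earlier results of these data known. Genes named are Ncl, the 10 lowest members, the 6 lowest of siRNA #2 minus siRNA #1, the 3 brightest and the 3 dimmest, all members of the 5 structural lists, members whose probe sets passed in opposite directions or only against the one used, and up to 4 passing genes with the largest change of each other list; others, head-to-head neighbours included, were named after their values were seen. Same-numbered replicates were not paired: deviations from group means correlated at -0.0186, -0.00462 and 0.00992 between groups. Alternatives changed the normalization, probe set choice, filter, variance model, replicates and threshold. Promoter letters were searched on both strands of the RefSeq windows for GRCm38.p6.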

Additional observations from a re-analysis of the deposited data

Results flagged for a closer look

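Values that differed between the siRNAs by the test of siRNA #2 minus siRNA #1 in the limma fit over all genes, at an adjusted p under 0.05, came from 16 members, all lower with siRNA #2. They were Mrps17 (-0.37), Mrps11 (-0.30), Mrpl23 (-0.27), Mrpl58 (-0.27), Mrpl33 (-0.26), Mrpl24 (-0.26), Mrps24 (-0.25), Mrpl41 (-0.25), Mrpl35 (-0.24), Mrpl19 (-0.23), Mrpl45 (-0.22), Mrpl17 (-0.22), Mrps14 (-0.21), Mrpl52 (-0.20), Mrpl42 (-0.19) and Mrps18c (-0.18). In Mrpl35, Mrpl17 and Mrpl45 the siRNA #1 change from the control was 0.04, 0.00 and -0.03, and the siRNA #2 change was -0.20, -0.22 and -0.25.

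One probe set outside the members stood against their direction. It is annotated to both Nme3 and Mrps34, and it read 9.83 and 9.84 with siRNA #2 and 10.28 and 10.06 with siRNA #1, against 9.71 and 9.65 with the control siRNA (0.32 ± 0.07 for the mean of both siRNAs, adjusted p 0.0022). All 4 knockdown arrays were above both control arrays. The probe set of Mrps34 alone gave -0.09 (adjusted p 0.218), and which of the 2 genes the shared probe set reads was not tested.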

How the results depend on the processing

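Over the alternatives the median change of the members ran from -0.36 to -0.26 for the mean of both siRNAs, -0.30 to -0.19 for siRNA #1, -0.46 to -0.31 for siRNA #2, and -0.23 to -0.09 for siRNA #2 minus siRNA #1. Leaving out 1 array at a time gave 51 to 65 lower members for the mean of both siRNAs, 38 to 54 for siRNA #1, 55 to 66 for siRNA #2 and 1 to 47 for siRNA #2 minus siRNA #1; higher members numbered 0 to 1, 0 to 3, 0 to 0 and 0 to 0, and the large-minus-small difference ran from -0.0904 to -0.0129. Where this left a group with 1 array, that array was assumed to vary like the other groups. A variance without a trend on signal gave 33 lower and 0 higher members for siRNA #1, against 13.6% of all genes lower. It gave 0 lower ones for siRNA #2 minus siRNA #1, against 0.33%. That last count was also 10 after quantile normalization (3.26% of all genes) and 28 with array medians centred (8.51%). It was 6 with each gene's probe sets averaged (2.97%) and 29 among genes above the median signal (17.1% of such genes). At an adjusted p under 0.01 it was 3, without a share over all genes. Higher members for siRNA #1 numbered 1 with array medians centred, 1 with array weights and 1 at an adjusted p under 0.01; for the mean of both siRNAs there was 1 after quantile normalization, 1 with averaged probe sets and 1 among genes above the median signal. The large-minus-small difference was -0.0795 with averaged probe sets, -0.0646 without probe sets of cross-binding types, -0.0339 with Mrps18a and Mrps30 moved and -0.0650 without Mrps36. The cause of these shifts was not tested. With the replicate block the lower members numbered 59, 48, 63 and 18 for the 4 comparisons in the order above. The shares of all genes were 21.7%, 17.8%, 21.7% and 6.21%. In that fit Mrps18a passed for the mean of both siRNAs (adjusted p 0.0429). Signs turned only among genes near 0, apart from Mrpl58: Mrpl3 was 0.0217 after quantile normalization, 0.0420 with averaged probe sets and -0.0440 to 0.0381 with an array left out. Mrpl38 was -0.0983 with averaged probe sets, -0.27 without cross-binding types and -0.0180 to 0.1133 with an array left out. Mrpl51 was 0.0014 after quantile normalization and 0.0838 with averaged probe sets. Mrps24 was -0.0231 with medians centred, -0.14 with averaged probe sets and -0.0325 to 0.0526 with an array left out. For Mrpl58 siRNA #2 minus siRNA #1 was 0.0092 with averaged probe sets, which adds a probe set at a mean level of 3.93. Mrps12 and Mrps24 have no value without cross-binding types. Single named genes lost a call in 38 cases, gained one in 16 and kept both direction and side of the threshold in 640.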
